A study of Mus musculus and Meriones unguiculatus with 4 samples.

Results

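The 2 gerbil libraries of a study of the enamel knot region in tooth germs were compared, 1 named E23 in its column and 1 named E21. They are 2 of the study's 4 samples. The genes compared were those listed under 1 symbol that occurs once in the gerbil table, leaving out unnamed and LOC entries, and they had to reach a level of 1 in at least 1 of the libraries. This left 11098 genes of the 25745 that were deposited. A level is the deposited TPM value, an abundance scaled by transcript length and library size, rescaled so that the genes with such a symbol sum to 1000000 in each library.

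All 4 samples were wild-type embryonic tooth germ tissue, labelled as epithelial cells, from the lower jaw. The gerbil samples (Meriones unguiculatus) are labelled embryonic day 15 and the mouse samples embryonic day 13. The tissue was fixed and frozen-sectioned, and the knot region was cut out by laser microdissection before RNA extraction. The labels do not explain E21 and E23, both of which differ from day 15, so it is not known here whether the names stand for stages, regions or something else. The column names also do not say which numbered sample each library is. The number of animals in a library is not given.

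The enamel knot is a cluster of epithelial cells at the centre of the tooth bud and cap that leaves the cell cycle and secretes signals of the hedgehog, Wnt, Fgf and BMP families. The surrounding dental epithelium and the underlying mesenchyme respond to these signals by growing and folding, and this places the cusps of the tooth crown. Vessels, blood and immune cells lie in the mesenchyme around the epithelium, and the lining of the mouth continues from the dental epithelium.

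With 1 library on each side there is no replicate, so no test was made and no difference below has a replicate check. A gene is called higher in a library when log2(level + 1) differed by at least 1, which is 2-fold and understates the difference of low genes. By this rule 663 genes (5.97% of those compared) were higher in E23 and 514 (4.63%) were higher in E21. E23 thus held 56.3% of these genes, but it held 69.4% of them when read counts scaled to CPM, which ignore length, replaced TPM and 42.6% when the libraries were scaled over all rows of the table. Which library held more of these genes therefore differed with the scaling. The 95% exact binomial interval of a ratio of reads, which covers counting error only because amplified reads are not independent molecules, kept 506 genes (4.56%) higher in E23 and 336 (3.03%) higher in E21.

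The libraries were alike in depth, with 4580796 reads in E21 and 4725681 in E23 on the genes with a usable symbol. Differences were more frequent among low genes, since 27.7% of the lowest of 4 equal groups of genes by level were past 2-fold and 2.56% of the highest group. The median log2 difference over all genes was -0.09, and it ran from -0.00396 in the shortest of 10 equal groups of genes to -0.17 in the longest. The log2 levels of the libraries had a Pearson r of 0.947 across genes, which are not independent replicates.

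**Figure D1:**
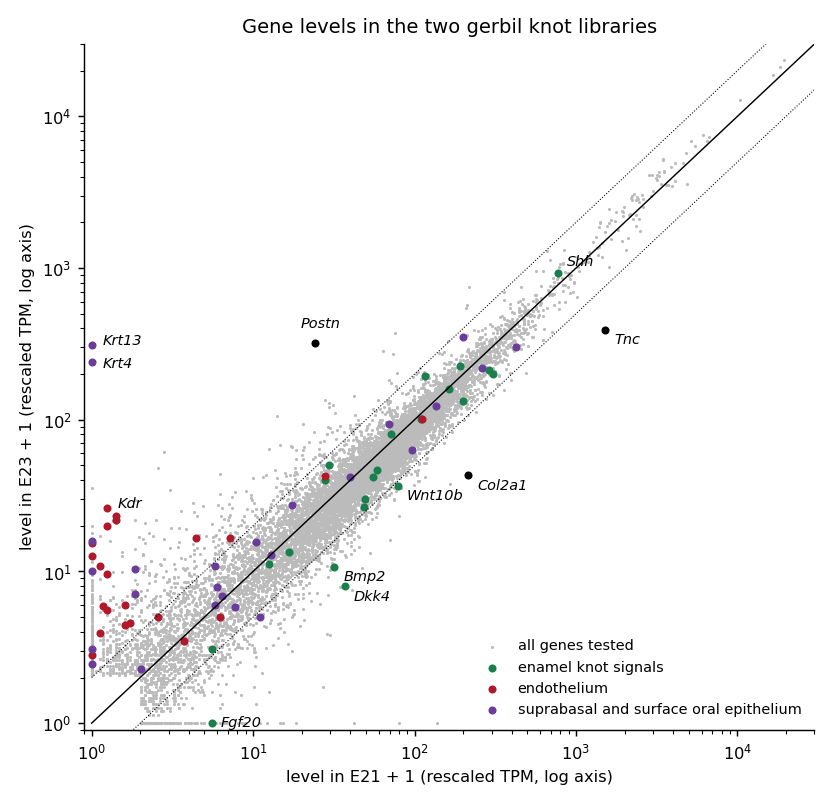
Each point is 1 gene, with its level plus 1 in E21 on the horizontal axis and in E23 on the vertical axis (both log axes, rescaled TPM), 3 gene lists in colour, the solid line at equal levels and the dotted lines at 2-fold on the plotted scale. Krt13 and Krt4 stand on the left edge at 0 in E21 and at 310 and 239 in E23, while Shh lies near the line of equal levels.

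The markers set for the region divided between the libraries. Shh was present in both at similar levels, the knot signals Dkk4 and Bmp2 were higher in E21, the vessel gene Kdr and the oral keratin gene Krt13 were higher in E23, and the matrix gene Tnc was higher in E21. All 6 were found under Ensembl gerbil gene identifiers, which place each gene on an assembly scaffold and not on a chromosome. No source used here names the gerbil build.

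Shh (ENSMUGG00000008382) encodes the hedgehog ligand that marks the knot. It had 2782 reads in E21 and 3696 in E23, levels of 773 and 930, a log2 difference of 0.27. Its level was thus high in both libraries, and the difference was within 2-fold. Dkk4 (ENSMUGG00000011139), a secreted Wnt antagonist expressed by the knot, had 42 reads in E21 and 9 in E23, with levels of 36.1 and 7.0 (log2 difference -2.21). Its ratio of reads per library total was 4.81 in favour of E21, with a counting interval of 2.31 to 11.2.

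Bmp2 (ENSMUGG00000004556), a BMP ligand of the knot, had 78 reads in E21 and 27 in E23, with levels of 30.9 and 9.73 (log2 difference -1.57). The ratio of its reads was 2.98 towards E21, with a counting interval of 1.90 to 4.80. Tnc (ENSMUGG00000000764), which encodes the matrix glycoprotein tenascin C, had 25354 reads in E21 and 7288 in E23, and its level was 1509 and 392 (log2 difference -1.94). The reads of this gene were plentiful in both libraries.

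Kdr (ENSMUGG00000016392), the main receptor for vascular endothelial growth factor on endothelial cells, had 3 reads in E21 and 377 in E23. Its level was 0.242 in E21 and 25.3 in E23, and the counting interval of the 122-fold read ratio was 41.4 to 593. Krt13 (ENSMUGG00000020672), a keratin of the suprabasal lining of the mouth, had 0 reads in E21 and 938 in E23, where its level was 310. With a floor of 3 reads in E21 it was at least 303-fold higher in E23 by CPM. Its partner keratin Krt4 had the same pattern, with 0 reads in E21 and 891 in E23, and was at least 288-fold higher there.

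Among enamel knot signals, no gene was higher in E23 and 4 of the 22 compared were higher in E21, against 5.97% and 4.63% over all genes. The 4 were Dkk4, Bmp2, Wnt10b and Fgf20, of which 2 were left by CPM. The list's median log2 difference was -0.36, beside -0.09 over all genes, and 16 of the 22 differences were below 0. Because these are bulk libraries, fewer knot cells in the cut region and less RNA per knot cell cannot be told apart, here and for every cell type below.

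Of the Wnt ligands in this list, Wnt10b had 184 reads in E21 and 93 in E23, and its level was 77.6 and 35.6 (log2 difference -1.10). It was within 2-fold by CPM. Wnt6 (54.5 and 41.1), Wnt10a (57.5 and 45.5) and Wnt3 (11.5 and 10.1) lay lower in E23 in each case by less than 2-fold, and the counting intervals of Wnt6 and Wnt3 included no change. The other Wnt-related members were Lef1, the transcription factor that carries the Wnt signal, with a level of 307 in E21 and 199 in E23 (log2 difference -0.62), and Sostdc1, a secreted Wnt and BMP antagonist found around the knot, which lay the other way at 115 and 194 (0.75).

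The Fgf ligands of the knot signal growth to the neighbouring epithelium and mesenchyme. Fgf20 had 4 reads in E21 and 0 in E23, and the counting interval of its ratio includes no change, so it was not distinguishable at this depth. Fgf9 had 117 reads in each library and levels of 109 and 99.5. Fgf15 had a level of 47.3 in E21 and 25.5 in E23 (log2 difference -0.87), Fgf4 of 15.6 and 12.4 (-0.31), and Fgf3 of 28.4 and 49.6 (0.78). The counting intervals of Fgf9 and Fgf4 included no change. The Fgf ligands thus lay on both sides of no change.

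The remaining members are BMP ligands, regulators and cell cycle genes. Bmp4, the ligand named in the study's title, had 510 reads in E21 and 545 in E23, levels of 163 and 157, and a log2 difference of -0.05. Bmp7 had a level of 200 in E21 and 133 in E23 (-0.58). Msx2, a homeobox gene induced by BMP signals in the knot, stood at 189 and 224 (0.24), and Fst, which encodes the activin and BMP antagonist follistatin, at 26.7 and 38.9 (0.53). Cdkn1a, whose product p21 holds knot cells out of the cell cycle, was at 48.2 and 29.1 (-0.71), within 2-fold. The dental epithelial transcription factor gene Sp6 was at 287 and 213 (-0.43). Slit1, an axon guidance ligand expressed in knots, was at 4.60 and 2.07 (-0.87), and Traf6, a signal adaptor of the Eda pathway, at 70.8 and 79.7 (0.17). Edar was not matched by symbol.

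**Figure D2:**
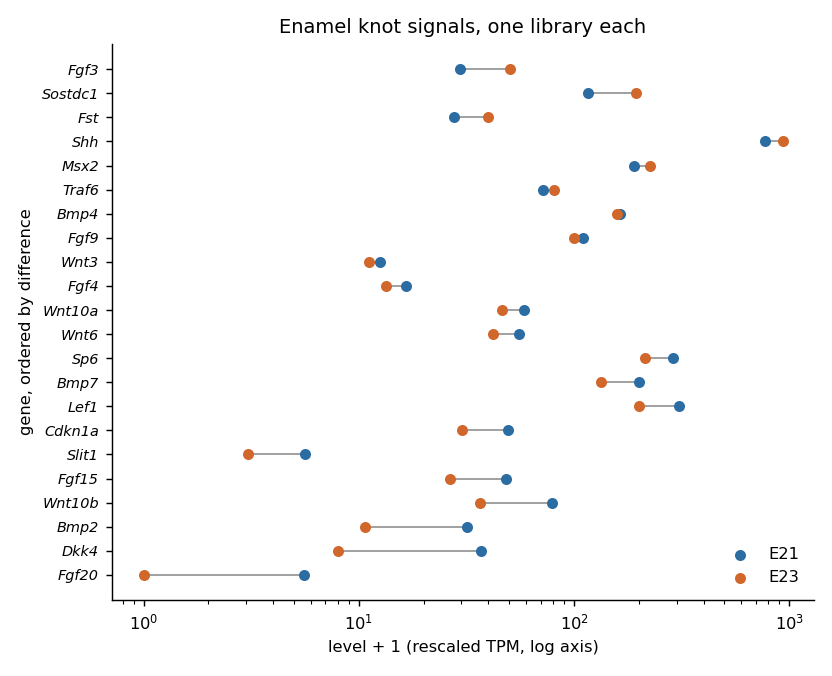
For each of the 22 enamel knot signals, the blue point is the level plus 1 in E21 and the orange point that in E23 (horizontal log axis, rescaled TPM, 1 library each), with genes ordered by their difference. Fgf20, Dkk4, Bmp2 and Wnt10b, at the bottom, are the members higher in E21, and Fgf3 (28.4 and 49.6) and Sostdc1 (115 and 194) are at the top.

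Relative to Shh in the same library, several knot signals stood lower in E23, which restates the levels given above. The ratio of the level of Dkk4 to that of Shh was 0.0467 in E21 and 0.00753 in E23. For Wnt10b this ratio was 0.10 and 0.0383, for Bmp2 0.0400 and 0.0105, and for Lef1 0.397 and 0.214. It was also lower in E23 for Sp6 (0.372 and 0.229), Cdkn1a (0.0623 and 0.0313), Bmp4 (0.211 and 0.169) and Fgf9 (0.142 and 0.107). Msx2 kept nearly the same ratio to Shh (0.245 and 0.241), and that of Sostdc1 was 0.148 and 0.209. Fgf3 and Fst, whose ratios are not given, also stood higher relative to Shh in E23. Their log2 differences were 0.78 and 0.53, beside 0.27 for Shh. The knot signals thus did not share 1 ratio between the libraries.

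Transcription factors of dental epithelium stood lower in E23 as well. Of 23 compared, 8 (34.8%) were higher in E21 and 1 (4.35%) was higher in E23, beside 4.63% and 5.97% of all genes. Beyond counting error these were 6 and 1, and the list's median log2 difference was -0.66. Gata3 and Foxi2, at 0 in E23, reached the minimum level only through E21. Those higher in E21 were 4 by CPM or when scaled over all rows, and 5 at a minimum level of 10. Tfap2a, an early regulator of ectoderm, had 309 reads in E21 and 122 in E23 and levels of 115 and 41.3 (log2 difference -1.46). Tbx1, required for growth of the dental epithelium, had a level of 106 in E21 and 38.4 in E23 (-1.44). Pitx1, a homeobox gene of the lower jaw and oral epithelium, was at 105 and 45.7 (-1.18), Pax9, a regulator of tooth formation, at 24.6 and 10.7 (-1.13) and Irx1 at 39.3 and 17.8 (-1.10). The exception in direction was Tfap2b, with 18 reads in E21 and 61 in E23 (levels 6.23 and 19.4, 1.5). Gata3 (9 and 0 reads), Nkx2-3 (14 and 5) and Foxi2 (4 and 0) rested on few reads, and the intervals of the last 2 included no change.

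The general epithelial genes, which check the label of the samples, were abundant in both libraries and within 2-fold. Krt5, a keratin of basal epithelium, had 26263 reads in E21 and 21166 in E23 (log2 difference -0.43), and its partner Krt14 had 2822 and 4058 (0.38). Epcam, an epithelial adhesion gene, stood at levels of 251 and 253, and Cdh1, which encodes E-cadherin, at 251 and 222. Of 14 basal epithelium genes only Lama3, a laminin chain of the epithelial basement membrane, was past 2-fold, with 221 reads in E21 and 990 in E23 (levels 16.1 and 66.0, 1.97). The list's median was 0.14, and it turned to just below 0 when the libraries were scaled over all rows.

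Among 25 genes of suprabasal and surface oral epithelium, 8 (32%) were higher in E23 and 1 (4%) in E21, beside 5.97% and 4.63% of all genes. Beyond counting error these were 6 and 1, and at a minimum level of 10 the counts were 3 and 1. Krt13, Krt4, Sprr1a, Krtdap, Spink5 and Cnfn, at 0 in E21, and Krt78 reached the minimum level only through E23. The count of 8 therefore partly follows from that filter. Krt13 and Krt4, given above, had the most reads of the 8. Krt78, a keratin of stratified oral epithelium, had 6 reads in E21 and 72 in E23 (levels 0.847 and 9.33, log2 difference 2.48). Spink5, a protease inhibitor of differentiating epithelium, had 0 and 17 reads and was at least 5.49-fold higher in E23. Sprr1a, a cornified envelope protein, had 0 and 9 reads and was at least 2.91-fold higher, and Gjb2, a gap junction gene, had 1 and 8 reads (ratio 7.75, counting interval 1.04 to 344). Krtdap (0 and 5 reads) and Cnfn (0 and 3) were not distinguishable by counting.

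The rest of the oral lining genes compared did not share this pattern. Of the 41 genes listed, 13 were not matched by symbol, among them Krt6a, Krt16, Sprr3, Loricrin and Ivl. Krt1 (42 and 35 reads) and Krt10 (24 and 29), the keratins of the cornifying layers, were at similar levels in the libraries. The desmosomal genes Dsg3 (537 and 386 reads) and Dsc2 (2408 and 1903) lay towards E21, within 2-fold. Ppl, which encodes periplakin, had 855 and 1280 reads and Anxa1 457 and 856, both towards E23 and within 2-fold. Ovol1, a regulator of epithelial differentiation, was the member higher in E21, with 44 reads there and 20 in E23 (log2 difference -1.15). The other 10 members compared lay between -0.26 (S100a16) and 0.90 (Tgm1), and the list's median was 0.43. Ly6d, a surface protein of stratified epithelium kept in the simple and periderm list, had 0 and 15 reads and was at least 4.85-fold higher in E23. In that list Grhl3, a regulator of surface epithelium, lay the other way with 138 and 53 reads (levels 21.2 and 7.40, -1.40), as did the claudin gene Cldn6 with 18 and 3 reads, a 6.19-fold ratio with a counting interval of 1.81 to 32.8.

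**Figure D3:**
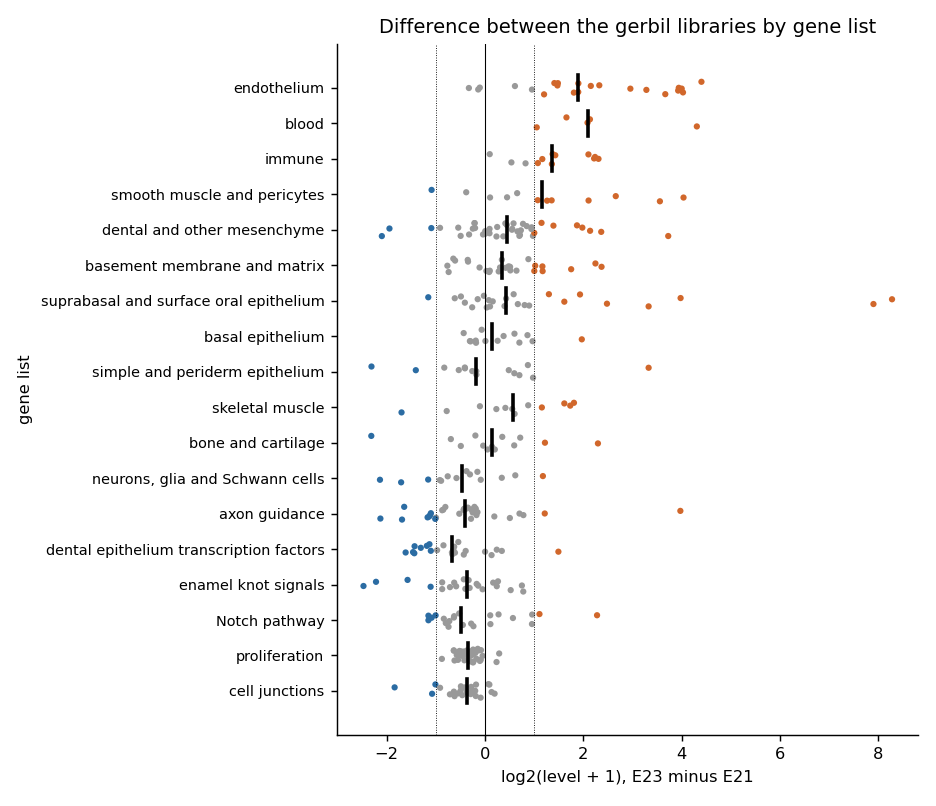
Each point is 1 gene of 18 gene lists, placed by its difference in log2(level + 1) of E23 minus E21, with orange points at 1 or more, blue points at -1 or less, dotted lines at these limits and a black bar at each list's median. The endothelium, blood, immune and mural cell lists have medians of 1.17 or more (that of the mural list is 0.28 at a minimum level of 10), whereas the dental epithelium factors and enamel knot signals lie below 0.

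Vessel genes were the group with the most members higher in E23. Of 22 endothelium genes compared, 17 (77.3%) were higher in E23 and none in E21, beside 5.97% and 4.63% of all genes. Of the 17, 16 were beyond counting error. The median log2 difference was 1.90. Those higher in E23 were 8 at a minimum level of 10, where the median was 3.80, and 9 when scaled over all rows. Esam, Emcn and Esm1, at 0 in E21, reached the minimum level of 1 only through E23. So did Kdr, Cdh5 and Plvap, which were under 1 in E21. The share of genes higher in E23 and both medians therefore partly follow from the filter. Summed over the list, the reads were 452 in E21 and 1897 in E23, and the levels 161 and 344. Ramp2, which encodes a protein that modifies peptide receptors, gave 271 and 272 of those reads.

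Cdh5, which encodes the cadherin of endothelial junctions, had 4 reads in E21 and 227 in E23, with levels of 0.424 and 22.3 (log2 difference 4.03). Pecam1, an adhesion molecule of the same junctions, had 1 and 121 reads, a ratio of 117 with a counting interval of 20.7 to 4671. Tie1, an endothelial receptor kinase, had 1 and 97 reads. These defining genes were near absent in E21. Emcn, a sialomucin of veins and capillaries, had 0 and 34 reads and was at least 11-fold higher in E23, and Esam, an endothelial adhesion molecule, had 0 and 52 reads and was at least 16.8-fold higher. Aplnr, the apelin receptor, had 1 and 52 reads, and Plvap, of fenestrated capillaries, had 1 and 44.

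The other endothelium genes higher in E23 were Robo4 (1 and 38 reads), Ptprb (3 and 76), Flt4 (8 and 75), S1pr1 (8 and 40), Nos3 (1 and 27), Mmrn2 (4 and 24), Erg (3 and 25), Eng (43 and 120) and Esm1 (0 and 4). The interval of Esm1 included no change. Of the 5 that were within 2-fold, Ramp2, Cldn5 (6 and 5 reads) and Apln (3 and 3) had nearly equal reads, and Egfl7 (71 and 128) and Dll4 (12 and 34) lay towards E23. Of the defining endothelial genes Kdr, Cdh5, Pecam1 and Tie1, none had more than 4 reads in E21. Nrp1, a co-receptor for vascular growth factor and semaphorins, showed the same split with 4 reads in E21 and 250 in E23 (levels 0.363 and 20.5, log2 difference 3.98). Vegfa, the ligand of Kdr, was equal, with levels of 141 in both.

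Genes of the cells that wrap vessels followed, with 7 of 12 smooth muscle and pericyte genes (58.3%) higher in E23 and 1 (8.33%) in E21. The shares over all genes were 5.97% and 4.63%, and the list's median was 1.17. Rgs5 and Acta2, at 0 in E21, reached the minimum level only through E23. At a minimum level of 10 the counts were 2 and 1 and the median 0.28, and when scaled over all rows 2 and 1 and 0.29. Rgs5, a pericyte marker, had 0 reads in E21 and 113 in E23 and was at least 36.5-fold higher. Abcc9, a subunit of the potassium channel of pericytes, had 9 and 188 reads (levels 0.847 and 20.8, log2 difference 3.56), and its channel partner Kcnj8 had 6 and 24. Acta2, smooth muscle actin, had 0 and 18 reads and was at least 5.82-fold higher in E23. The exception was Notch3, which pericytes and other cells express, with 912 reads in E21 and 474 in E23 (-1.08), a call that ended under 4 other scalings or measures.

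**Figure D4:**
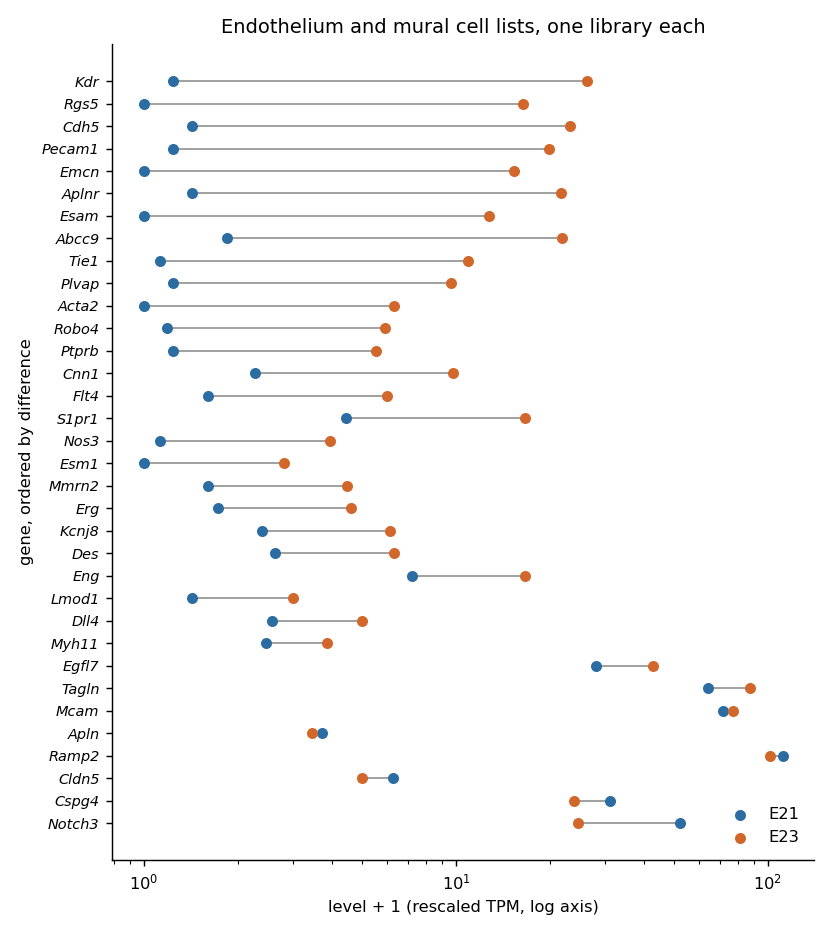
Levels plus 1 of the genes in the endothelium and the smooth muscle and pericyte lists in E21 (blue) and E23 (orange), on a horizontal log axis of rescaled TPM with 1 library each and genes ordered by difference. Most endothelial genes sit at or near 0 in E21, as Kdr does (0.242 against 25.3), and Notch3 at the bottom is higher in E21.

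The blood and immune genes matched by symbol were low in both libraries and in sum had more reads in E23. All 5 of the blood genes compared were higher in E23, beside 5.97% of all genes, and 4 were beyond counting error. The list's reads summed to 6 in E21 and 95 in E23. Pf4 and Ppbp, at 0 in E21, reached the minimum level only through E23, so the count of 5 partly follows from that filter. Epb42, with reads in E21 only, was under the minimum level. Of the 17 listed genes, 8 were not matched by symbol, Hba-a1 and Hbb-bt among them. The list's median log2 difference was 2.09, or 1.66 with the genes at 0 set to their bound. The platelet chemokine gene Ppbp had 0 and 45 reads and was at least 14.5-fold higher in E23. The red cell genes Alas2, of haem synthesis, and Slc4a1, the anion exchanger, had 2 and 18 reads and 1 and 19 reads. The erythroid regulators Gata1 and Klf1 and the embryonic globin Hbb-y were at 0 in both libraries.

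Of 12 immune genes, 9 (75%) were higher in E23 and none in E21, beside 5.97% and 4.63% of all genes. Of the 9, 7 were beyond counting error, and the list's median was 1.37. Cd53, at 0 in E21, reached the minimum level only through E23. The reads of the 13 immune genes found summed to 61 and 329. At a minimum level of 10, 1 gene of each of the blood and immune lists was higher in E23. Mrc1, a mannose receptor of macrophages, had 17 and 126 reads and Csf1r, the receptor for their growth factor, had 6 and 61. Ptprc, which encodes the pan-leukocyte antigen CD45, had 4 reads in E21 and 25 in E23. The complement gene C1qa had 4 and 16, and Laptm5, a lysosomal protein of blood cells, 1 and 19. Aif1 (5 and 6 reads) and Fcer1g (8 and 14), also of macrophages, were within 2-fold.

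Mesenchymal genes were divided. Of 41 compared, 8 (19.5%) were higher in E23 and 3 (7.32%) in E21, beside 5.97% and 4.63% of all genes. All of these were beyond counting error, and the list's median log2 difference was 0.45. Of the 8 higher in E23, Postn, Lum, Col1a1 and Fn1 encode matrix proteins. Postn, which encodes periostin, had 126 reads in E21 and 1929 in E23 and levels of 23.2 and 321 (log2 difference 3.73). Lum, the collagen-binding proteoglycan lumican, stood at 63.2 and 282 (2.14), and Col1a1, a chain of collagen I, at 206 and 544 (1.39). Col3a1 (360 and 696) and Col1a2 (356 and 610) lay towards E23 within 2-fold. The same direction held for Cdh2 (10.5 and 41.3, 1.87), which encodes N-cadherin, and Dlx6 (3.51 and 22.3, 2.37), a homeobox gene of the jaw mesenchyme.

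Other mesenchymal markers stood nearly level, so mesenchymal RNA was present in both libraries beside their epithelial label. Vim, which encodes the intermediate filament vimentin, was at 424 in E21 and 426 in E23. Msx1, which marks dental mesenchyme, was at 30.2 and 25.3, Runx2 at 50.9 and 44.2, and Twist1 at 25.4 and 17.7. Twist2 (18 and 4 reads, log2 difference -2.10) and Barx1 (42 and 21 reads, -1.09), a homeobox gene of molar mesenchyme, were higher in E21, as was Tnc. The list's summed level was 5685 in E21 and 6458 in E23.

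Basement membrane and matrix genes gave 7 of 27 (25.9%) higher in E23, beside 5.97% of all genes, and none in E21, with a median of 0.35. Lama4, a laminin chain of vessel basement membranes, had 68 and 448 reads (levels 5.26 and 31.5, 2.37). Col12a1, a collagen that binds fibrils, stood at 41.3 and 142 (1.76), the proteoglycan gene Bgn at 58.8 and 134 (1.17), and Fn1, which encodes fibronectin, at 56.3 and 114 (1.01). Mmp9, a gelatinase, had 6 and 53 reads. In the same direction, outside any list, were Aspn (6 and 217 reads, 4.43) and Dpt (6 and 200 reads, 4.23), matrix proteins of connective tissue.

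Most endothelium, blood, immune and mural genes compared, 7 of the 27 matrix genes and the keratin genes Krt13, Krt4 and Krt78 were thus higher in the same library, in which several knot signals and dental epithelial factors were lower. The matrix list as a whole had nearly equal summed levels of 4212 in E21 and 4101 in E23. The endothelium list gave 452 of 4580796 reads in E21 and 1897 of 4725681 in E23, and the suprabasal and surface list 4967 and 7204. Their part in the lower values of Dkk4, Bmp2 or Tfap2a in E23 was not tested.

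Among Wnt receptors, antagonists and targets, 4 of 38 (10.5%) were higher in E23 and 5 (13.2%) in E21, beside 5.97% and 4.63% of all genes. All of these were beyond counting error, and the list's median was -0.35. The receptors divided, with Fzd7 (273 and 117 reads, log2 difference -1.34), Fzd8 (76 and 30, -1.35) and Fzd5 (69 and 32, -1.16) higher in E21 and Fzd4 (9 and 48, 1.81), which endothelial cells also use, higher in E23. The secreted antagonists of this list that were past 2-fold, Dkk2 (6 and 91 reads, 3.11) and Sfrp1 (20 and 52, 1.08), were higher in E23. Kremen2, a receptor for Dkk proteins, had levels of 98.9 and 36.1 (-1.43), and Sp5, a direct Wnt target, had 17 and 4 reads (-1.69). Of the 12 Wnt ligands, Wnt7b (24 and 101 reads, 1.64), Wnt11 (19 and 90, 1.88) and Wnt16 (1 and 13, 1.73) were higher in E23, and Wnt10b was the member higher in E21.

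Of 13 hedgehog receptors and targets, 1 (7.69%) was higher in E23 and 2 (15.4%) in E21 (median -0.39). The shares over all genes were 5.97% and 4.63%, here and for the lists below. Ptch1, the Shh receptor and target, was nearly equal at levels of 294 and 271, while the target Gli1 was at 106 and 69.1 (log2 difference -0.60). Hhip, a hedgehog-binding antagonist, lay the other way with 5 reads in E21 and 78 in E23 (2.97). The pathway's genes therefore did not share 1 direction.

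Of 27 BMP pathway genes, 2 (7.41%) were higher in E23, near the 5.97% of all genes, and none in E21. Bmp3, an atypical ligand that opposes BMP signalling, had 16 and 286 reads (levels 2.06 and 33.3, log2 difference 3.49). Grem1, a secreted BMP antagonist, had 0 and 18 reads and was at least 5.82-fold higher in E23. The median was 0.12, and its sign turned when the libraries were scaled over all rows or when a level of 10 was required. The target genes Id1 (50.3 and 39.7) and Smad6 (18.2 and 12.7) lay slightly towards E21 and Id2 (101 and 200, 0.98) towards E23.

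Of 27 Fgf pathway genes, 3 (11.1%) were higher in E23 and 5 (18.5%) in E21, with a median of -0.28. Beyond counting error these were 1 and 3. Fgf8, a ligand of early oral epithelium, had 23 and 6 reads (log2 difference -1.76), and Spred3, a feedback inhibitor, 101 and 36 (-1.47). The target genes Etv4 (218 and 118, -0.87), Etv5 (128 and 98.5, -0.37), Spry2 (258 and 187, -0.47) and Dusp6 (623 and 526, -0.24) were all lower in E23, within 2-fold. Of 22 Notch genes, 2 (9.09%) were higher in E23 and 4 (18.2%) in E21 (median -0.49). This balance turned to 4 and 1 by CPM. It was 4 and 2 with TMM scaling, with the median difference set to 0 or with the length trend removed. Dlk1, an atypical ligand that is imprinted, had 82 and 450 reads (2.28), and Hey2, a Notch target, had 107 and 52 (-1.15). Notch1 had 5305 and 2918 reads and lay at the 2-fold limit (-1.0), and 4 other scalings or measures put it within 2-fold.

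In the remaining pathways most members were within 2-fold, as were 89.4% of all genes. Of 17 activin and TGF-beta genes, Tgfbi, a matrix protein induced by TGF-beta, was higher in E23 (21.2 and 70.4, log2 difference 1.68) and Inhbb, an activin subunit gene, was higher in E21 (5.45 and 1.80, -1.20). Of 13 Eda and NF-kB genes the 1 past 2-fold was Eda, which had 1 read in E21 and 6 in E23 and was not distinguishable by counting. Of 13 retinoic acid genes, 3 (23.1%) were higher in E23 and 1 (7.69%) in E21, beside 5.97% and 4.63% of all genes. The binding proteins divided, with Crabp1 at 27.8 and 79.8 (1.49) and Crabp2 at 117 and 51.0 (-1.18).

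The study's title names cell proliferation and apoptosis. No gene of the 38 proliferation genes was past 2-fold in either direction, although 36 of them lay below 0, with a median of -0.35. Mki67, a marker of dividing cells, was at levels of 451 and 309 (log2 difference -0.55), the mitotic cyclin gene Ccnb1 at 211 and 155 (-0.45), and Pcna, of DNA replication, at 419 and 383 (-0.13). Of 13 genes of cell cycle exit none was past 2-fold (median -0.07, above 0 under 4 other scalings or measures). Cdkn1b, which encodes the inhibitor p27, was at 152 and 145. Of 27 apoptosis genes, 1 (3.70%) was higher in E23 and 2 (7.41%) in E21 (median -0.32). Fas, a death receptor gene, had 7 and 30 reads (1.54). The pro-apoptotic gene Bmf had 322 and 205 reads, and its call in E21 (-1.13) ended with read counts, as did that of Bik (20 and 9 reads).

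Guidance molecules had as many members higher in E21 as the dental epithelium factors. Of 31 compared, 8 were higher in E21, all beyond counting error, and 2 in E23 (median -0.40). Sema3d, a secreted repellent, had 798 and 198 reads (levels 164 and 36.9, log2 difference -2.13). Sema3a (99.4 and 44.8, -1.13), Sema3c (240 and 112, -1.10) and Sema3f (44.2 and 19.9, -1.11), of the same class, lay the same way, as did Sema6a (127 and 62.7, -1.01). Their co-receptor Nrp1 and the receptor Plxnd1 (23.3 and 55.5, 1.22), both known from vessels, were the 2 members higher in E23. Netrin 1 (Ntn1, 38 and 10 reads, -1.69) and the netrin receptor gene Unc5d (32 and 7, -1.64) were higher in E21.

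Neuronal and glial genes were low and lay towards E21, with 3 of 14 higher in E21, 1 in E23 and a median of -0.48. Syt1, a synaptic vesicle protein, had 53 and 12 reads (log2 difference -2.13) and Nefl, a neurofilament gene, 14 and 2. Sox10, a regulator of neural crest and glia, had 0 and 4 reads. Elavl3, Isl2, Prph and Foxd3 were at 0 in both. Gad1, which makes the transmitter GABA and was outside the lists, had 145 reads in E21 and 28 in E23 (-2.43).

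Bone and cartilage genes gave 2 of 13 (15.4%) higher in E23 and 1 (7.69%) in E21. Col2a1, the main collagen of cartilage, had 2119 reads in E21 and 460 in E23 (levels 213 and 42.2, log2 difference -2.31). Hapln1, a hyaluronan link protein (6 and 42 reads, 2.30), and Cnmd, which encodes chondromodulin (42 and 111, 1.22), lay the other way. Matn1 and Col10a1, which define cartilage and its hypertrophic zone, were at 0 in both. Skeletal muscle genes were few in reads, with 61 in E21 and 105 in E23 over the 18 genes found. Of the 12 compared, 4 (33.3%) were higher in E23 and 1 (8.33%) in E21, Tnni2 (2 and 0 reads). The 4 were the actin genes Actc1 (1 and 10 reads) and Acta1 (0 and 8), the myosin light chain gene Mylpf (0 and 3) and the troponin gene Tnni1 (1 and 6). Counting error could not separate the libraries for Mylpf, Tnni1 and Tnni2. The defining regulators Myod1, Myf5 and Pax7 were at 0 in both. Of 6 salivary and glandular genes the 1 past 2-fold was Bhlha15, higher in E21 but not beyond counting error, and Pip and Bpifa2 were at 0 in both.

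Several genes of enamel formation were absent or rare. The list of enamel and dentine formation as a whole, which includes Notch1, had 8209 reads in E21 and 5790 in E23. Dspp, Dmp1 and Vwde were not matched by symbol, so their levels are not known here. Of 13 found in the table, Enam, Amtn, Klk4, Mmp20, Odam and Odaph were at 0 in both libraries, and Ambn had 0 reads in E21 and 1 in E23. Amelx, which encodes amelogenin, had 0 and 5 reads, a difference that counting error could not separate. Sp7, a transcription factor of odontoblasts and bone, was at 16.2 and 11.3.

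Most members of the metabolic, structural and stress lists were within 2-fold, as were 89.4% of all genes. None of 20 cholesterol synthesis genes was past 2-fold (median -0.31), 1 of 19 glycolysis and hypoxia genes was (Ndrg1, 39.0 and 87.8, log2 difference 1.15), and 1 of 15 chaperone genes was (Cryab, 1 and 26 reads). Of 29 actin and myosin genes the 1 past 2-fold was Tpm2 (25.4 and 57.8, 1.16). Of 26 junction genes, 3 (11.5%) were higher in E21, beside 4.63% of all genes, and none in E23. Immediate-early genes, which respond to handling and stress, gave 3 of 20 (15%) higher in E23 and 2 (10%) in E21. These counts became 5 and 0 by CPM and 5 and 1 with the median difference set to 0. Fosl2 was the largest at 16.5 and 65.4 (1.93), and Fos had 7 and 24 reads (1.19).

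All genes compared, listed or not, were also ranked if they had a level of at least 20 and at least 100 reads in the higher library. The largest differences towards E23 were those of Krt13, Krt4, Aspn, Kdr, Dpt, Cdh5, Pappa2 and Nrp1. Pappa2, a protease that cleaves Igf-binding proteins, had 10 and 374 reads (log2 difference 4.00). Epas1, the hypoxia-inducible factor of endothelium, had 129 and 1145 reads (2.91), Lepr, the leptin receptor, 30 and 278 (2.81), Sytl2, a vesicle trafficking gene, 23 and 239 (2.79) and the matrix gene Abi3bp 26 and 211 (2.46).

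Towards E21 the largest differences were those of Jph4, a junctional membrane protein of neurons (113 and 13 reads, log2 difference -2.89), Gad1, Col2a1, the neural proteoglycan gene Cspg5 (170 and 39, -2.15), Sema3d and Slc26a4, an anion exchanger (360 and 87, -2.12). Plch2, a phospholipase, followed with 549 and 144 reads (-2.01), and then Tnc. Epyc, a proteoglycan of cartilage and other matrices, had levels of 79.7 and 22.1 (-1.80) and the kinesin gene Kif21b of 41.1 and 12.8 (-1.61). Gfra1, a co-receptor for the neurotrophic factor GDNF, was at 44.2 and 13.5 (-1.64), Gpc2, a glypican of developing neurons, at 39.2 and 12.1 (-1.62), Nrap at 21.1 and 6.26 (-1.61) and Necab3 at 36.5 and 11.4 (-1.60).

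In 14 genes E23 had at least 20 reads and E21 had 0. They include Krt13, Krt4, Rgs5, Esam, Emcn and Ppbp, given above, and Clec14a, an endothelial lectin with 22 reads, Scara5 with 29, Msln with 28 and Npy with 27. The reverse held for 1 gene, Tmem100, a membrane protein known from BMP signalling in endothelium, with 22 reads in E21 and 0 in E23, so that it was at least 7.57-fold higher in E21. Its direction is opposite to that of the endothelium list.

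The 4 genes at the highest levels were the same in both libraries. The mitochondrial genes COX3 (19569 and 23646), COX2 (18278 and 21273) and COX1 (16520 and 18858) led, followed by Eef1a1, a translation factor, at 10439 and 12800. The fifth was SNORD15, a small nucleolar RNA, in E21 (6699 and 7361) and the ribosomal protein gene Rps6 in E23 (6103 and 7558). All lay within 2-fold.

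The mouse pair, with columns marked PEK and SEK, which the labels likewise do not explain, gives a measure of how far 2 libraries of a species lay apart in this series. Its values are FPKM normalized separately from the gerbil table, so only within-species differences are set side by side. Among the mouse genes 1 row held 46.4% of the summed SEK values and no row held more than 3.51% in PEK. As deposited, 2.08% of 10185 mouse genes were higher in SEK and 51.2% in PEK. With that row left out of the scaling, an alternative added after the values had been seen, 6.51% of 10350 were higher in SEK and 17.8% in PEK, and the mouse values below use it.

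The oral keratins were near 0 in 1 library and high in the other in mouse too. Krt13 was at 0.485 in PEK and 271 in SEK, beside 0 in E21 and 310 in E23, and Krt4 was at 0.504 and 235, beside 0 and 239. In the mouse 18 of 27 genes of suprabasal and surface epithelium were higher in SEK and 1 in PEK. Of the knot signals higher in E21, Dkk4 was at 80.5 in PEK and 15.8 in SEK, Bmp2 at 129 and 5.42 and Wnt10b at 167 and 56.5, the same direction as in gerbil. Fgf20, not distinguishable by counting in gerbil, was at 448 and 31.4. In the mouse 10 of 21 knot signals were higher in PEK and 1 in SEK. Shh was at 933 and 602.

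Of 19 endothelium genes in the mouse, 7 were higher in SEK. Kdr was at 0.405 in PEK and 1.69 in SEK, Cdh5 at 0.867 and 2.13, and Pecam1 at 2.55 and 4.57, all within 2-fold on the log2(level + 1) scale. Plvap (3.22 and 28.1, log2 difference 2.79), Esam (1.02 and 10.5, 2.50), Aplnr (2.43), S1pr1 (2.16), Tie1 (1.56) and Emcn (1.22) were among the 7, as they were among those higher in E23. Postn was at 8.83 and 13.1 and Tnc at 4.98 and 2.68. The difference between species in these contrasts was not tested, with 1 library in each arm.

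**Figure D5:**
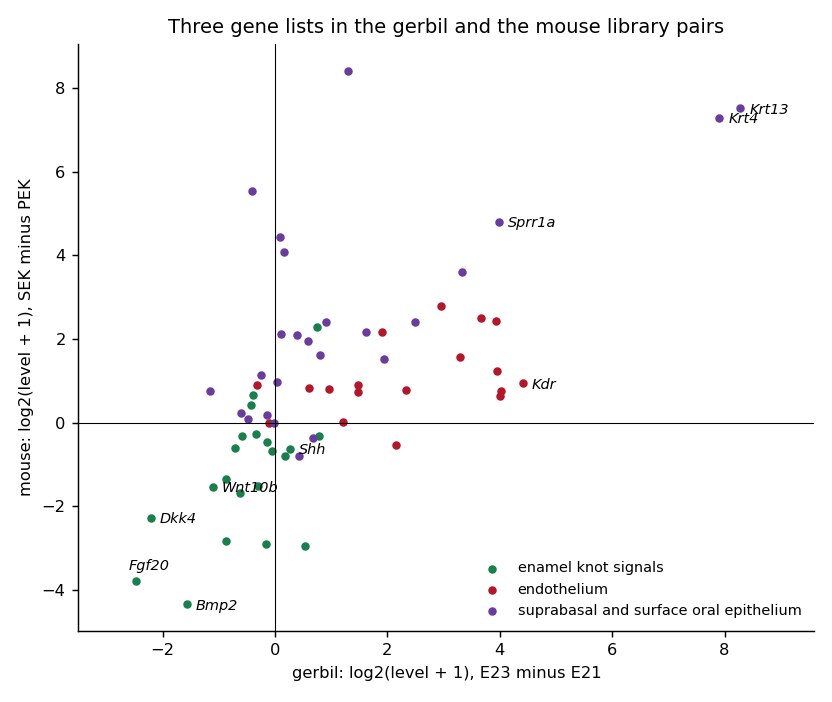
Each point is 1 gene of 3 lists, with the gerbil difference (E23 minus E21) on the horizontal axis and the mouse difference (SEK minus PEK, without the dominant row) on the vertical axis, both in log2(level + 1). Krt13 and Krt4 lie far to the upper right (8.28 and 7.52 for Krt13), Dkk4, Bmp2, Fgf20 and Wnt10b to the lower left, and most endothelial genes are far out on the gerbil axis and near 0 to 3 on the mouse axis.

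Over the 9578 genes compared in both species, 127 of the 449 genes higher in E23 were also higher in SEK (28.3%, beside 5.55% of all genes), which is 23.9% of those higher in SEK. Of the 372 genes higher in E21, 123 were also higher in PEK (33.1%, beside 17.3% of all genes), which is 7.42% of those higher in PEK. Besides the keratins and knot signals, the shared genes include Gad1 (77.7 in PEK and 0.806 in SEK), Sp5 (460 and 116) and Ntn1 (4.96 and 0.703). In the other direction they include Ly6d (11.5 and 414), Krtdap (117 and 1444) and Plvap (3.22 and 28.1). The gerbil difference of Krtdap was not distinguishable by counting. The proliferation genes did not lie the same way, since 10 of 38 were higher in SEK and none in PEK, against none past 2-fold in gerbil.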

How the data were processed

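The comparison uses the gerbil table of 25745 genes and, as background, the mouse table. For gerbil the authors deposited TPM and whole-number read counts per library, and for mouse they deposited FPKM. A further 2 columns of the gerbil table, which hold RPKM, were not used. The tools RSEM 1.3.1, STAR 2.7.1a and cutadapt 2.8 appear in the submitters' processing notes, with no settings, and no source used here names the gerbil build. A gene's relative length was taken as its read count over its TPM. The tables were read with pandas 2.3.3 and intervals computed with scipy 1.17.1 and Python 3.11.15.

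Of 14701 genes with a symbol occurring once, 11098 reached a level of 1 in E21 or E23. They received 59.5% of the 7695416 reads in E21 and 57.8% of the 8182187 in E23, and 16.5% and 15.0% of summed TPM, since noncoding RNAs held 78.0% and 79.8%. A gene under the minimum level in 1 library was compared only through the other, so the counts of any list partly follow from that filter. Log2 values used a pseudocount of 1. Ratios of reads carry exact binomial 95% intervals. A gene at 0 was set at a floor of 3 reads per library only for folds given as at least a value and for medians at the bound. Calls and log2 differences used its level of 0 with the pseudocount. Reads shared by near-identical genes may be split, and strand use is not stated.

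The members and the 36 gene lists were chosen with earlier results of these data known. Of 878 distinct listed genes, 732 were found and 671 compared. The genes named are the 6 markers, the members of the knot, endothelium and surface epithelium lists, up to 2 members per direction of other lists, the 15 largest differences per direction at a level of 20 and 100 reads, the 5 highest genes per library and defining markers at 0. Other list members, Gad1 and the genes at 0 in 1 library were named after their values had been seen. Some genes that the rule names are left out of the text. The TMM scaling was computed from its published definition. The procedure was tested on simulated data.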

Additional observations from a re-analysis of the deposited data

How the results depend on the processing

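With 1 library a side, no library could be left out and no test was made. No paired analysis was possible because each side of the comparison is 1 library and the columns carry no replicate number. The genes higher in E23 and in E21, 663 and 514 as reported, became 250 and 250 at a minimum level of 10, 145 and 195 when scaled over all rows (where levels are smaller against the same pseudocount and the median over all genes was -0.22), and 159 and 57 at 4-fold. Those higher in E21 became 276 by CPM and 336 when the counting interval had to exclude no change. Otherwise those higher in E23 ranged from 506 to 843 and those higher in E21 from 394 to 712, within 1.5 times, among them TMM scaling (782 and 426), median difference set to 0 (751 and 394), length trend removed (748 and 411) and E23 thinned to the depth of E21 (675 and 517). The mouse genes past 2-fold were 53.3% with the dominant row and 24.3% without it, an alternative chosen after seeing the data. No named gene turned its direction past 2-fold. Of 123 named genes past 2-fold, none was lost by thinning or a pseudocount of 0.1, 3 by TMM scaling, 20 by CPM and 51 by scaling over all rows. Depth limits the low genes: 366 of the genes past 2-fold had under 10 reads in both libraries.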

Other observations

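Gene families that share some members with the lists gave these counts, beside 5.97% of all genes higher in E23 and 4.63% higher in E21. Of 6 Igf-binding protein genes, 3 were higher in E23 and 1 in E21, with a median log2 difference of 1.11. Igfbp5, the most abundant of the 4, had 439 reads in E21 and 2419 in E23 (levels 74.7 and 372, log2 difference 2.30), Igfbp3 had 129 and 580 (1.99) and Igfbp7, which vessels also express, had 27 and 113 (1.83). Igfbp6 lay the other way with 18 and 8 reads, a difference that counting error could not separate. Of 16 cadherin genes, 6 were higher in E23 and 2 in E21 (median 0.74), and the 6 include Cdh5 and Cdh2 of the endothelium and mesenchyme lists. Of 12 serpin genes, 4 were higher in E23 and none in E21, among them Serpine2, a protease inhibitor (levels 211 and 573, 1.44), and Serpinf1, which encodes an inhibitor of vessel growth (75.4 and 166, 1.13). Sparcl1, a matrix glycoprotein of vessels and neural tissue, was at 217 and 744 (1.77).

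Of 217 zinc finger genes named Zfp, 15 were higher in E21, 13 of them beyond counting error, and 1 in E23, with a median of -0.30. Of 44 cytoplasmic ribosomal protein genes none was past 2-fold in either direction, with a median of 0.30. In the imprinted growth list, 3 of 8 genes were higher in E23 (Dlk1, Magel2 and Plagl1) and none in E21, with a median of 0.77 that was 0.25 at a minimum level of 10 and 0.13 when scaled over all rows. Plagl1, a zinc finger regulator of imprinted genes, had 312 and 732 reads (1.07).

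For 10 of the 7832 genes with at least 50 reads in both libraries, the TPM ratio and the read ratio differed by more than 1.5 times. Pdpn, which encodes podoplanin of lymphatic vessels and epithelium, had 57 and 100 reads, a read ratio of 1.70, but a level ratio of 2.54. Intu, a planar polarity gene, had a read ratio of 0.848 and a level ratio of 0.488. Mrps18c had 1.33 and 2.13. These genes' differences depend on the transcript length assigned in each library.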
